A study of Mus musculus with 6 samples.

Results

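The genes described here make, destroy and sense prostaglandins, and comprise 10 of the 46603 gene identifiers counted in cultures of mouse enteric glia (EGCs), the glial cells that accompany the neurons of the gut. They were chosen by gene symbol, for their known role in the pathway, with earlier results of these data known. Each symbol matched 1 identifier. Pla2g4a releases arachidonic acid, Ptgs1 and Ptgs2 are the cyclooxygenases, Ptges, Ptgis, Ptgds and Hpgds are terminal synthases, Hpgd is the enzyme of breakdown, and Ptger2 and Ptger4 are receptors. All 10 passed the filter on low counts.

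The study asked which factors EGCs could provide to monocytes and macrophages. Poly(A) RNA was sequenced from resting EGC cultures and from cultures activated with lipopolysaccharide (LPS), an outer-membrane component of bacteria. All 6 cultures were grown from whole intestines of E14.5 C57BL/6J embryos, with no genetic modification named in the labels. Digested tissue was grown for 1 week as neurospheres, free-floating clusters of neural progenitors, in EGF and FGF, and the cells were then plated in medium with serum until confluent. The 3 LPS cultures received 100 ng/ml LPS for 12 h, and the 3 control cultures received no treatment. The cultures were not sorted, and the labels did not say whether the replicates of a group came from separate litters or animals, so the p-values below measure the spread between these cultures, which may be technical.

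Library totals ran from 18775316 to 23664312 counts. The markers of several cell types were present together, and the libraries numbered 3 stood apart. The glial markers Sox10, S100b and Gfap summed to between 101 and 129 CPM (counts per 1000000 of the normalized library size) in control and between 83.9 and 92.5 CPM in LPS, and 1 of the 3 (S100b) was called lower. In the 6 libraries, 6 mesenchymal markers summed to between 10826 and 12505 CPM, and 2 of them (Pdgfra and Dcn) were called higher in LPS. The sum of 12 macrophage markers was 3903, 4993 and 11565 CPM in control replicates 1, 2 and 3 and 3922, 5079 and 18972 CPM in LPS replicates 1, 2 and 3. Most of this sum was Lyz2, at 2888 CPM in control replicate 1. The markers did not move together: of the 12, 1 (Adgre1) was called higher in LPS, whereas Mrc1 was at 197, 331 and 752 CPM in control and at 9.29, 10.4 and 131 CPM in LPS (not called, edgeR adjusted p = 0.145). Smooth muscle markers summed to between 2266 and 2492 CPM in control and between 634 and 900.3 CPM in LPS, and 6 of 6 were called lower. Mesothelial markers summed to between 63.2 and 95.4 CPM in control and between 34.6 and 56.4 CPM in LPS (1 of 5 called, lower), neuronal markers to between 237 and 393 CPM in all libraries (1 of 5 called, lower), and endothelial markers to between 8.05 and 20.7 CPM. None of the 5 epithelial and none of the 5 mast cell markers passed the filter, and 3 of the mast cell markers had no count in any library. In such mixed cultures, fewer cells of a type and less RNA per cell cannot be told apart.

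Prostaglandins are lipid mediators made on demand from arachidonic acid, which phospholipase A2 frees from membranes. A cyclooxygenase turns it into the unstable intermediate prostaglandin H2, and the terminal synthase that a cell carries decides which prostanoid follows: prostaglandin E2, prostaglandin D2, prostacyclin or thromboxane. Signalling by prostaglandin E2 ends largely when it is taken up and oxidized by 15-hydroxyprostaglandin dehydrogenase, whereas prostacyclin and thromboxane A2 are short-lived by themselves. In the gut, prostaglandin E2 acts on smooth muscle tone, on the epithelium and, through its EP2 and EP4 receptors, on macrophages.

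After LPS, transcripts of the inducible arm of prostaglandin E2 synthesis rose, with the breakdown enzyme lower and the constitutive cyclooxygenase near its control level. Ptges rose 23.7-fold, Ptgs2 7.77-fold and the EP2 receptor gene Ptger2 3.19-fold, as ratios of mean CPM, and Hpgd was 13.5-fold lower. These 4 of the 10 genes (40%) were called at an adjusted p-value under 0.05 by the edgeR quasi-likelihood test, 3 higher and 1 lower. Over the 15226 genes tested, the same rule called 9.09% higher and 6.71% lower. That split depended on scaling, since upper-quartile factors called 1050 genes higher and 1589 lower, and library size alone 986 and 2054, against 1384 and 1022. The median log2 fold change was 0.07 over the 10 genes and -0.02 over all genes tested.

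**Figure D1:**
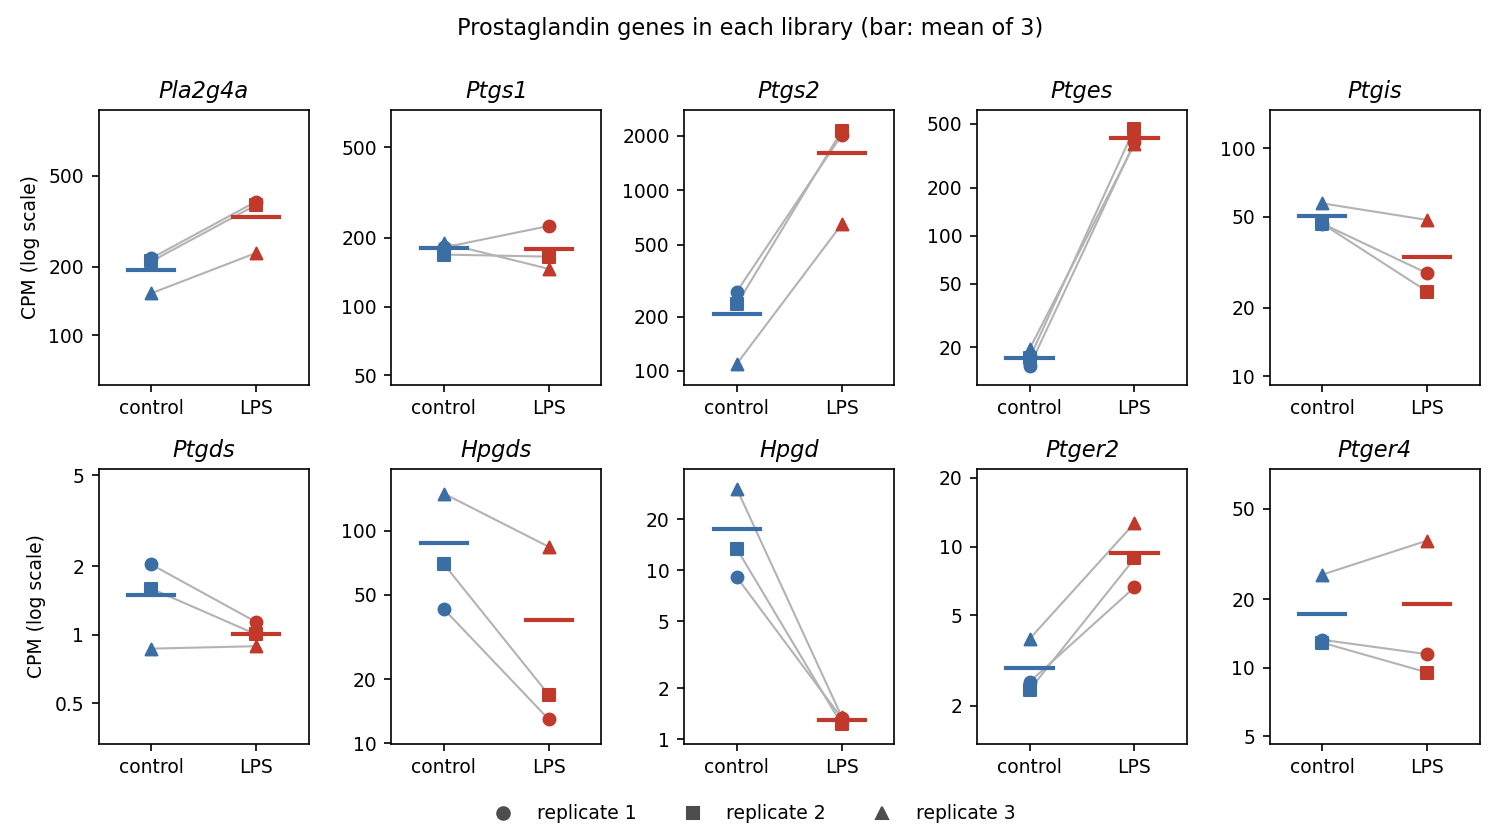
CPM of each of the 10 genes (log scale, own range in each panel) in 3 control and 3 LPS libraries, with points shaped and joined by replicate number and a bar at the mean of each group. Pla2g4a, Ptgs2, Ptges and Ptger2 lie higher in every LPS library than in any control library, Hpgd lies lower, and the libraries numbered 3 stand apart for Ptgs2, Hpgds and Ptger4.

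The start regions of the 4 genes that carry this contrast are shown, namely those of both cyclooxygenase genes, of the E2 synthase and of the breakdown enzyme. Each sequence is a RefSeq window on GRCm38.p6 from 250 bases before to 50 after the annotated start, read 5′ to 3′ on the strand of the gene. Capitals mark matches to the motifs named after them.

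Ptgs1, chr2:36230176-36230475, plus strand: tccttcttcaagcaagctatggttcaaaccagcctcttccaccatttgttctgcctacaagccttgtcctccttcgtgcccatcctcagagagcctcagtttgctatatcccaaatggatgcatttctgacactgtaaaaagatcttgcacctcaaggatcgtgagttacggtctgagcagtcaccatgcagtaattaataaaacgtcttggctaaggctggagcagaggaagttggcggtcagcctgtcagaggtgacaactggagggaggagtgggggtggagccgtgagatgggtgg
Ptgs2, chr1:150099781-150100080, plus strand: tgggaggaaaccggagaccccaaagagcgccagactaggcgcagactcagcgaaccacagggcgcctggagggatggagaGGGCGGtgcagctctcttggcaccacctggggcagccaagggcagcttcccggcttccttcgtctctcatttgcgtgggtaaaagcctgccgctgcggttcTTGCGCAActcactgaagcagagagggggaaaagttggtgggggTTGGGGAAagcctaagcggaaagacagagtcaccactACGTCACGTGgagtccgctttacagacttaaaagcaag
Ptges, chr2:30903248-30903547, minus strand: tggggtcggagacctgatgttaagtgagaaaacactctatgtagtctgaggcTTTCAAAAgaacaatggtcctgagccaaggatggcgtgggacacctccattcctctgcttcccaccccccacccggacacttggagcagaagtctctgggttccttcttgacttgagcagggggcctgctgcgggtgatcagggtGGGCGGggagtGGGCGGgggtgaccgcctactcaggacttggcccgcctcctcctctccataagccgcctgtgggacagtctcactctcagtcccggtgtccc
Hpgd, chr8:56294302-56294601, plus strand: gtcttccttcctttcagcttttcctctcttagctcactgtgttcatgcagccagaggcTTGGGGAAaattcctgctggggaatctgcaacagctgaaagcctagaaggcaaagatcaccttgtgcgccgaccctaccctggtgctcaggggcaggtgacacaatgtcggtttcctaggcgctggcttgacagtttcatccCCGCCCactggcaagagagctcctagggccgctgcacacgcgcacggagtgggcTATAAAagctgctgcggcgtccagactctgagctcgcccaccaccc

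The motifs were searched on both strands, and matches may overlap. They were the TATA box (written TATAAA), the cAMP response element (written TGACGTCA) and its core (written TGACGT), the AP-1 motif (written TGANTCA), the C/EBP motif (written TTNNGNAA), the E box (written CACGTG), the SP1 motif (written GGGCGG), and the interferon-stimulated and NF-kB motifs. With positions counted from 0 at the annotated start, the Ptgs2 window held SP1 at -170, C/EBP matches at -69 and -25, and a core cAMP response element at 12 that overlaps the E box at 16. The Ptges window held a C/EBP match at -198 and SP1 at -53 and -42. The Hpgd window held C/EBP at -192, SP1 at -50 and a TATA box at 4. The GENCODE start of Hpgd lies downstream of the RefSeq start used here, and the TATA box is upstream of it. The Ptgs1 window held no match to these letters. Among 32851 such windows of the mouse genome, C/EBP matches were in 40.7%, SP1 in 35.7%, a TATA box in 13.6%, the core cAMP response element in 7.51% and the E box in 7.15%. Such a window was found for 9 of the 10 genes, the exception being Ptgis. NF-kB matches were in 4.51% of all windows and in that of Ptgds alone among the 9 genes. A match is a description of the letters and not of a bound site.

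Pla2g4a encodes cytosolic phospholipase A2, which frees arachidonic acid from membrane lipids (ENSMUSG00000056220, GRCm38 chr1:149829618-149961290, minus strand, protein coding). It was measured at 217, 211 and 153 CPM in control replicates 1, 2 and 3 and at 386, 373 and 229.6 CPM in LPS replicates 1, 2 and 3. All LPS libraries were above all control libraries, and in both groups replicate 3 was the lowest. The mean went from 194 ± 35.6 to 329.6 ± 86.8 CPM (SD, n = 3 each). This difference of 0.77 on the log2 scale (SE 0.24) was not called (edgeR adjusted p = 0.0869). Within same-numbered pairs the ratio of LPS to control was 1.78, 1.77 and 1.50. With the replicate number as a block, a pairing taken from these data, the gene was called (log2 fold change 0.75, edgeR adjusted p = 0.00516). It was also called without LPS replicate 3 (adjusted p = 0.016), by DESeq2 (0.0192) and by the edgeR exact test (0.036).

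The cyclooxygenase genes differed in their response. Ptgs1, the gene of the constitutive enzyme COX-1 (ENSMUSG00000047250, chr2:36230426-36252272, plus strand, protein coding), was at 182, 169 and 190.2 CPM in control and at 226, 166 and 146 CPM in LPS. The highest and the lowest of the 6 libraries were both LPS libraries. The means were 180.4 ± 10.6 and 179 ± 41.5 CPM (SD, n = 3 each). The log2 fold change was -0.01 with a 95% interval from -0.43 to 0.41 (edgeR adjusted p = 0.978), and its sign depended on the scaling (0.01 with relative log expression factors).

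Ptgs2, the gene of the inducible enzyme COX-2 (ENSMUSG00000032487, chr1:150100031-150108227, plus strand, protein coding), lies on the same chromosome as Pla2g4a. It was at 274, 233 and 109 CPM in control replicates 1, 2 and 3 and at 2020.2, 2129 and 647 CPM in LPS replicates 1, 2 and 3. Replicate 3 was the lowest of its group in both conditions, and the lowest LPS library was still above the highest control library. Ptgs2 rose by 2.96 on the log2 scale (SE 0.58; edgeR adjusted p = 0.0245). Paired by number, LPS was 7.36, 9.13 and 5.92 times the control level, and the block reduced the SE to 0.14 (adjusted p = 0.000946). Without a block, the call was lost when LPS replicate 1 or 2 or control replicate 1 or 2 was left out, with adjusted p-values from 0.0764 to 0.106 and log2 fold changes from 2.67 to 3.33 over the 6 libraries left out in turn.

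Genes can be compared with each other per kilobase of exon, and on that scale the balance of the cyclooxygenase transcripts shifted in each pair. The ratio of Ptgs2 to Ptgs1 was 1.28, 1.17 and 0.487 in control and 7.58, 10.9 and 3.75 in LPS. Ptgs2 was thus slightly above Ptgs1 in 2 control libraries and below it in control replicate 3, and it was at least 3.75 times as abundant in all 3 LPS libraries.

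Ptges, the gene of microsomal prostaglandin E synthase-1, the inducible synthase that works with COX-2 (ENSMUSG00000050737, chr2:30889471-30929863, minus strand, protein coding), had the largest fold change of the 10 genes. Its annotated gene in GENCODE M21 reaches further upstream than the RefSeq start of the window shown above. It was at 15.2, 17.1 and 19.5 CPM in control and at 384, 468 and 374 CPM in LPS. The libraries of each group lay close together, those numbered 3 included. The means were 17.3 ± 2.15 and 409 ± 51.8 CPM (SD, n = 3 each), and Ptges rose by 4.56 on the log2 scale (SE 0.16; edgeR adjusted p = 0.000125). The paired ratios were 25.3, 27.4 and 19.2. The gene was called in all 16 alternative fits, in which the adjusted p was at most 0.00379 and the log2 fold change lay between 4.41 and 4.75.

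The other 3 terminal synthases were not called. Ptgis encodes prostacyclin synthase (ENSMUSG00000017969, chr2:167191805-167240604, minus strand, protein coding). It was at 46.7, 46.7 and 57.3 CPM in control and at 28.3, 23.5 and 48.5 CPM in LPS. LPS replicate 3 lay within the control range. Its log2 fold change was -0.59 (SE 0.28; edgeR adjusted p = 0.213), and the gene was called lower with the replicate block (-0.65, adjusted p = 0.0412) and without LPS replicate 3 (-0.96, adjusted p = 0.0115). Smooth muscle markers were also lower in LPS, as given above, and their part in this value was not tested.

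Hpgds, the hematopoietic prostaglandin D synthase, is known from mast cells and macrophages (ENSMUSG00000029919, chr6:65117293-65144908, minus strand, protein coding). It was at 42.8, 69.7 and 149.8 CPM in control and at 12.9, 16.9 and 84.1 CPM in LPS. LPS replicate 3 was above control replicates 1 and 2, so the groups overlapped. The log2 fold change was -1.20 (SE 0.84; edgeR adjusted p = 0.379). Within pairs, control was 3.31, 4.13 and 1.78 times the LPS level, and the gene was called lower with the block (-1.51, adjusted p = 0.0181) and without LPS replicate 3 (-2.56, adjusted p = 0.0405). Leaving out control replicate 3 instead brought the difference to -0.55 (adjusted p = 0.703). Without both libraries numbered 3, the adjusted p was 0.0014.

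Within each group, Hpgds was higher where the sum of the macrophage markers was higher. Between groups this did not hold. Hpgds was at 69.7 CPM in control replicate 2 (marker sum 4993 CPM) and at 16.9 CPM in LPS replicate 2 (5079 CPM). Per 1000 CPM of the 12 markers summed, it stood at 11.0, 14.0 and 13.0 CPM in control replicates 1, 2 and 3 and at 3.30, 3.32 and 4.43 CPM in LPS replicates 1, 2 and 3. The ratio of Hpgds to a single marker was lower in all LPS libraries than in all control libraries for 8 of the 12 markers and higher for 1. The part of the macrophage content in the Hpgds values was not tested, and the defining mast cell markers were at or near 0, as given above.

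Ptgds, the lipocalin-type prostaglandin D synthase (ENSMUSG00000015090, chr2:25466709-25470046, minus strand, protein coding), was the least abundant synthase, with 17 to 48 counts in a library. Its level was 2.03, 1.59 and 0.868 CPM in control and 1.14, 1.00 and 0.890 CPM in LPS. The groups overlapped and the log2 fold change of -0.56 (SE 0.36) was not called (edgeR adjusted p = 0.339).

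Hpgd encodes 15-hydroxyprostaglandin dehydrogenase, which inactivates prostaglandin E2 (ENSMUSG00000031613, chr8:56294585-56321043, plus strand, protein coding). It was at 9.11, 13.4 and 30.4 CPM in control replicates 1, 2 and 3 and at 1.33, 1.23 and 1.36 CPM in LPS replicates 1, 2 and 3. The control libraries spread over a wide range, and the LPS libraries lay within a narrow one, at 22 to 27 counts each. The means were 17.6 ± 11.2 and 1.31 ± 0.0714 CPM (SD, n = 3 each). Hpgd fell by 3.75 on the log2 scale (SE 0.51; edgeR adjusted p = 0.00909). Control was 6.83, 10.9 and 22.3 times the LPS level in the pairs numbered 1, 2 and 3. The call was lost when LPS replicate 2 was left out (adjusted p = 0.054), and the log2 fold change lay between -4.05 and -3.08 over the 6 libraries left out in turn.

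In control, Hpgd also followed the macrophage markers, at 2.33, 2.69 and 2.63 CPM per 1000 CPM of the marker sum. In LPS these values were 0.340, 0.241 and 0.0717 CPM. The ratio of Hpgd to a single macrophage marker was lower in all LPS libraries for 10 of the 12 markers and higher for 0. LPS replicate 3 had the highest marker sum of the 6 libraries and an Hpgd level like those of the other LPS libraries. The part of the macrophage content in the control values was not tested.

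**Figure D2:**
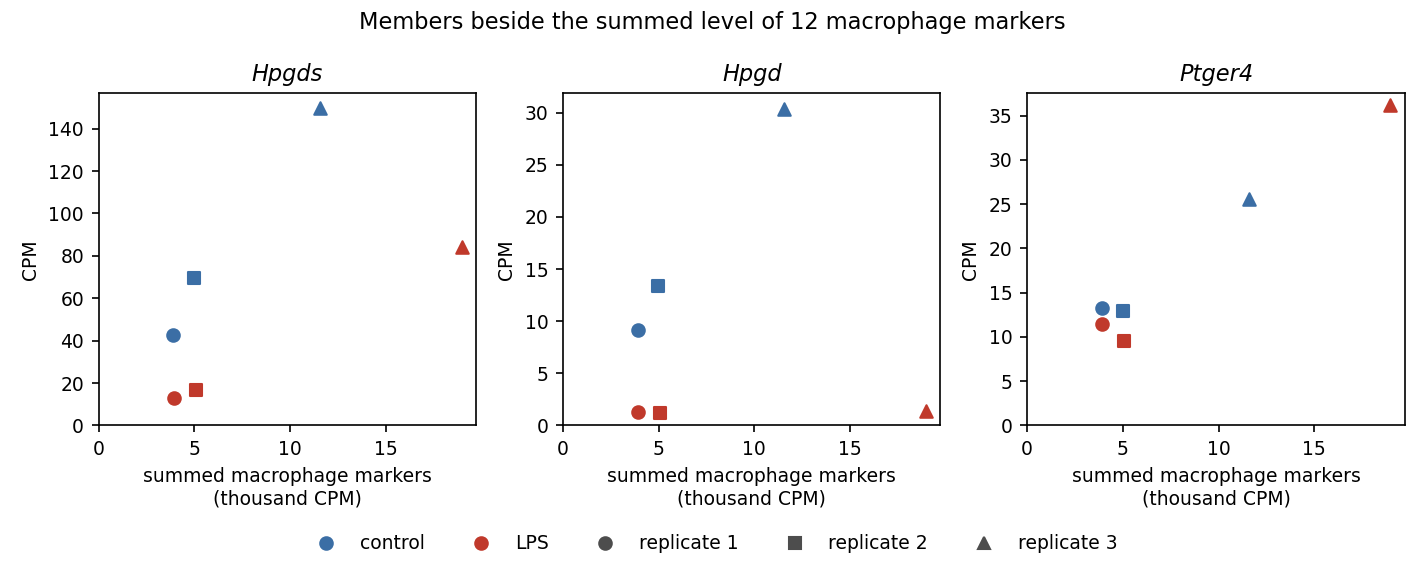
CPM of Hpgds, Hpgd and Ptger4 (vertical axes) in each of the 6 libraries against the summed level of 12 macrophage markers in units of 1000 CPM (horizontal axes), coloured by group and shaped by replicate number. The 2 libraries numbered 3 lie to the right, Hpgd averages 1.31 CPM in all 3 LPS libraries, and Ptger4 is highest in LPS replicate 3 at 36.2 CPM.

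Synthase and breakdown enzyme of prostaglandin E2 thus moved in opposite directions. Per kilobase of exon, the ratio of Ptges to Hpgd was 0.715, 0.545 and 0.275 in control replicates 1, 2 and 3, so Hpgd was the more abundant transcript in each on this scale. That order rests on the exon lengths, since the ratio of raw counts was 1.67, 1.27 and 0.642 in the same libraries. In LPS replicates 1, 2 and 3 the ratio per kilobase was 123, 164 and 118, and that of raw counts 288, 382 and 275. No test was run on this ratio.

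**Figure D3:**
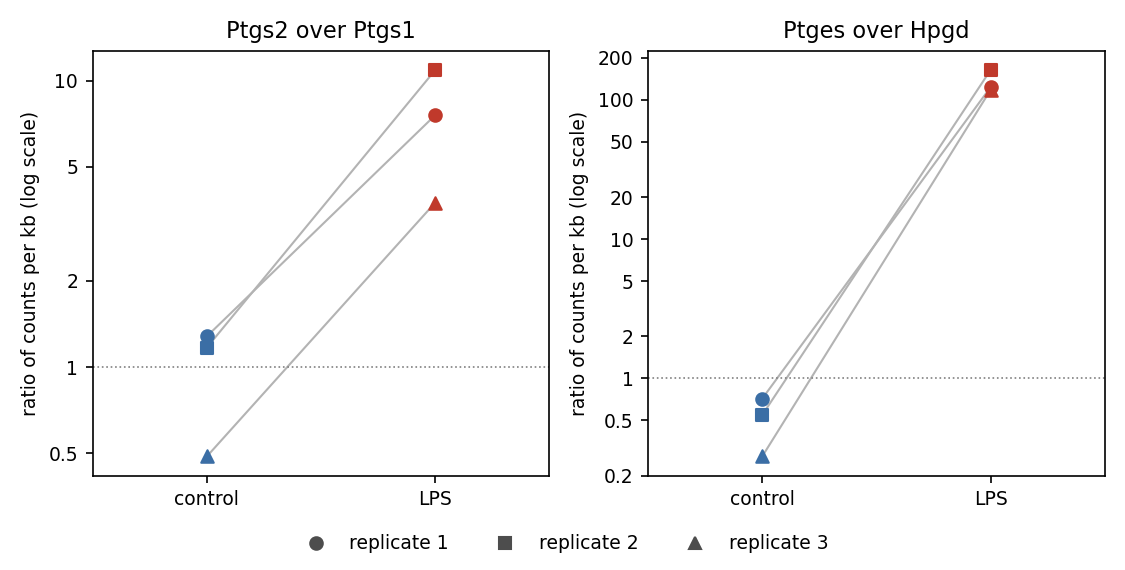
Ratio of Ptgs2 to Ptgs1 (left) and of Ptges to Hpgd (right), each from counts per kilobase of exon (log scale), in 3 control and 3 LPS libraries joined by replicate number, with a dotted line where both genes are equal. On this scale the Ptges to Hpgd ratio is under 1 in every control library and over 100 in every LPS library, whereas from raw counts it is 1.67 and 1.27 in control replicates 1 and 2.

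Ptger2 encodes EP2, a receptor for prostaglandin E2 that raises cAMP (ENSMUSG00000037759, chr14:44988195-45003820, plus strand, protein coding). It was a low transcript, with 53 to 95 counts in control and 134 to 242 in LPS. Its level was 2.54, 2.35 and 3.93 CPM in control and 6.62, 8.86 and 12.7 CPM in LPS. The groups did not overlap, and replicate 3 was the highest of each. Ptger2 rose by 1.67 on the log2 scale (SE 0.33; edgeR adjusted p = 0.0246), with paired ratios of 2.60, 3.78 and 3.23. The call was lost when LPS replicate 2 or control replicate 1 or 2 was left out (adjusted p from 0.0845 to 0.11). With the block the adjusted p was 0.00526.

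Ptger4, the gene of the other cAMP-linked receptor EP4 (ENSMUSG00000039942, chr15:5206661-5244187, minus strand, protein coding), was not called. It was at 13.3, 12.9 and 25.6 CPM in control and at 11.5, 9.53 and 36.2 CPM in LPS. LPS replicate 3 was the highest of the 6 libraries and LPS replicates 1 and 2 were the lowest. The log2 fold change was 0.14 with a 95% interval from -1.29 to 1.57 (edgeR adjusted p = 0.894), and its sign reversed with the block (-0.03) and without both libraries numbered 3 (-0.29). Per 1000 CPM of macrophage markers, Ptger4 stood at 3.40, 2.58 and 2.22 CPM in control and 2.92, 1.88 and 1.91 CPM in LPS. The ratio of Ptger4 to a single marker was lower in all LPS libraries for 4 of the 12 markers and higher for 3. The part of the macrophage content was not tested. Exons of Ptger4 overlap those of the pseudogene Gm15937 and of Ttc33 on the opposite strand over 15.3% and 1.23% of their length, and these genes had at most 3 and 625 counts of their own in a library. Smaller overlaps with transcripts of the opposite strand affect Ptgis (6.08% of exon length), Ptger2 (4.74%) and Ptgs1 (3.81%), where the other transcript had at most 16, 12 and 2 counts.

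**Figure D4:**
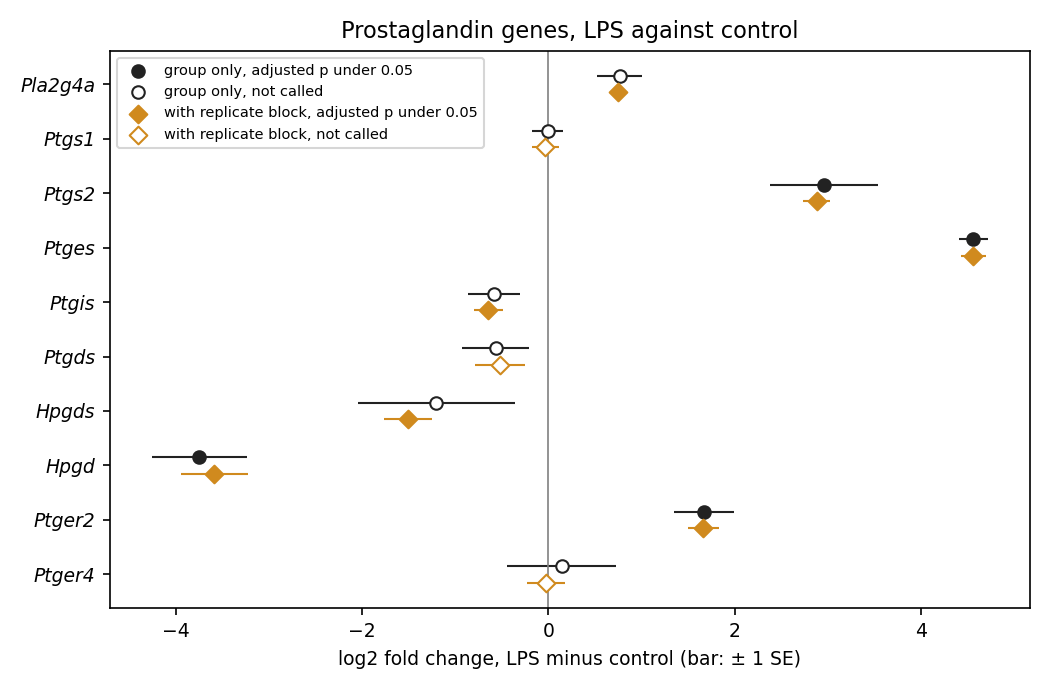
Log2 fold change of LPS against control for the 10 genes (horizontal axis, bars are 1 SE), from the fit with the group alone (black circles) and the fit with the replicate number as a block (orange diamonds), filled where the adjusted p was under 0.05. Ptgs2, Ptges, Hpgd and Ptger2 are filled in both fits, and Pla2g4a, Ptgis and Hpgds in the blocked fit.

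With the block, 7 of the 10 genes were called, 4 higher and 3 lower, where the blocked fit called 15.4% of all genes higher and 14.9% lower. The genes whose groups did not overlap were Pla2g4a, Ptgs2, Ptges and Ptger2, with all LPS libraries higher, and Hpgd, with all lower. These were 5 of 10 genes (50%), against 38.7% of all genes tested (19.3% with all LPS libraries higher and 19.4% with all lower). Without both libraries numbered 3, a check chosen after seeing the data, the log2 fold changes of the 4 genes called above were 3.05 for Ptgs2, 4.75 for Ptges, -3.10 for Hpgd and 1.68 for Ptger2 (edgeR adjusted p at most 0.00142).

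The order of the transcripts, per kilobase of exon, changed with treatment. In control, Ptgs1 (mean 46.4 CPM per kb) and Ptgs2 (44.9) were the highest, followed by Pla2g4a (30.3), Ptgis (19.6), Hpgds (13.6), Hpgd (10.5), Ptges (4.39), Ptger4 (2.60), Ptgds (0.909) and Ptger2 (0.566). Neighbours from Ptgs1 to Hpgd overlapped in their library ranges, except that Ptgis lay below Pla2g4a in every library. On this scale, Ptges lay below the lowest Hpgd library and above the highest Ptger4 library, and Ptgds overlapped Ptger2. In LPS, Ptgs2 (349 CPM per kb) and Ptges (104) led, above Pla2g4a (51.6) and Ptgs1 (46.2), which overlapped each other. Among the genes tested, Ptges moved from percentile 47.2 to percentile 97.2 and Hpgd from percentile 70.2 to percentile 17.4.

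The rest of the eicosanoid pathway was read from a list of 41 further genes, of which 29 passed the filter. The edgeR test called 4 higher and 4 lower, 27.6% against 15.8% of all genes in either direction, and the median log2 fold change was 0.16. A fit with the replicate block called 7 higher and 8 lower (30.3% of all genes in either direction).

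Of 7 other prostanoid receptors, 5 passed the filter, and the test called 2 of them higher and 1 lower. Ptgir, the prostacyclin receptor gene, was at 15.7, 14.6 and 13.5 CPM in control and at 30.3, 32.7 and 24.7 CPM in LPS. The groups lay apart and Ptgir rose by 1.00 on the log2 scale (SE 0.13; edgeR adjusted p = 0.00863). The call was lost without control replicate 2 (adjusted p = 0.0591). Ptgfr, the receptor of prostaglandin F2 alpha, rose from 1.08 ± 0.193 to 2.38 ± 0.222 CPM (SD over 3 libraries each; 1.13 on the log2 scale, adjusted p = 0.027). Tbxa2r, the thromboxane receptor gene, fell from 3.67 ± 0.653 to 1.12 ± 0.354 CPM (-1.71, adjusted p = 0.018). Both calls were lost when replicate 1 or 2 of either group was left out (adjusted p up to 0.109 for Ptgfr and 0.086 for Tbxa2r), and that of Ptgfr also without the filter on low counts (0.0506). Thromboxane A2 and prostacyclin are known for opposite actions on vessels and platelets.

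Of the remaining E2 receptors, Ptger3 (EP3) was at 3.29 ± 0.945 and 1.66 ± 0.266 CPM (SD over 3 libraries each; -0.99 on the log2 scale, edgeR adjusted p = 0.0695). The block called it lower (adjusted p = 0.025), as did DESeq2 (0.0269), the edgeR exact test (0.0472), library size alone (0.0498) and the fits without control replicate 3 (0.0487) and without both libraries numbered 3 (0.0183). Ptger1 (EP1) was at 2.69 ± 0.352 and 3.10 ± 0.599 CPM (SD, n = 3 each) and was not called. Of the prostaglandin D2 receptors, Ptgdr had at most 2 counts in any library. Ptgdr2 had 3, 1 and 41 counts in control and 0, 1 and 18 in LPS, so it was above the floor of 3 counts in the libraries numbered 3 alone.

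Among 7 other synthases and reductases, the edgeR quasi-likelihood test called 1 and DESeq2 called 2. Over all 15226 genes, DESeq2 called 2079 higher and 1673 lower. Ptges2, the membrane-associated prostaglandin E synthase-2, was at 14.7, 14.0 and 16.4 CPM in control and at 36.1, 34.2 and 20.0 CPM in LPS. It rose by 1.00 on the log2 scale (SE 0.24; edgeR adjusted p = 0.0415), least in the pair numbered 3, where the ratio was 1.22. The call held without LPS replicate 3 and was lost without each of the other 5 libraries (adjusted p up to 0.156), with upper-quartile factors (0.0604), with library size alone (0.0617) and with limma-voom (0.0612). Ptges3, the cytosolic synthase and co-chaperone, was at 80.6 ± 13.1 and 91.2 ± 4.99 CPM (SD, n = 3 each) and was not called. Akr1b3, which can form prostaglandin F2 alpha, was at 49.1 ± 5.18 and 79.7 ± 21.2 CPM (SD, n = 3 each; edgeR adjusted p = 0.0698, unadjusted 0.0136). All its LPS libraries were above all control libraries.

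Tbxas1, thromboxane synthase, is another gene known from macrophages. It was at 23.3, 36.3 and 94.1 CPM in control and at 8.60, 8.92 and 55.1 CPM in LPS, with the highest value of each group in replicate 3. Its log2 fold change was -1.08 (SE 0.91; edgeR adjusted p = 0.464), and the gene was called lower with the block (-1.37, adjusted p = 0.0221). Alox5ap, which presents arachidonic acid to 5-lipoxygenase, had the same layout, with 26.0, 36.1 and 77.0 CPM in control and 13.8, 14.4 and 52.1 CPM in LPS (log2 fold change -0.79, adjusted p = 0.466, and 0.0191 with the block). With 1 library left out, the log2 fold change of Tbxas1 ranged from -2.55 (without LPS replicate 3) to -0.29 (without control replicate 3) and that of Alox5ap from -1.72 to -0.20 in the same order, with no call. For each of these genes, the ratio to 8 of the 12 macrophage markers was lower in all LPS libraries and the ratio to 1 was higher, and the part of the macrophage content was not tested.

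Of 4 genes of transport and later breakdown, 1 was called higher and 1 lower. Abcc4, an exporter of prostaglandins, rose from 21.9 ± 2.78 to 41.1 ± 10.4 CPM (SD over 3 libraries each; 0.91 on the log2 scale, edgeR adjusted p = 0.0358). Ptgr2, a reductase that acts after Hpgd, fell from 55.0 ± 3.61 to 40.7 ± 4.37 CPM (-0.43, adjusted p = 0.0435). The call for Abcc4 was lost when control replicate 1 or 2 or LPS replicate 2 was left out, and that for Ptgr2 without each library but LPS replicate 3 (adjusted p up to 0.138 and 0.158). Ptgr2 was also not called without the filter (0.0584) or by the edgeR exact test (0.0581). Slco2a1, the uptake carrier that delivers prostaglandins to Hpgd, was at 11.0, 14.7 and 59.7 CPM in control and at 18.8, 21.7 and 43.0 CPM in LPS and was not called (adjusted p = 0.982).

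**Figure D5:**
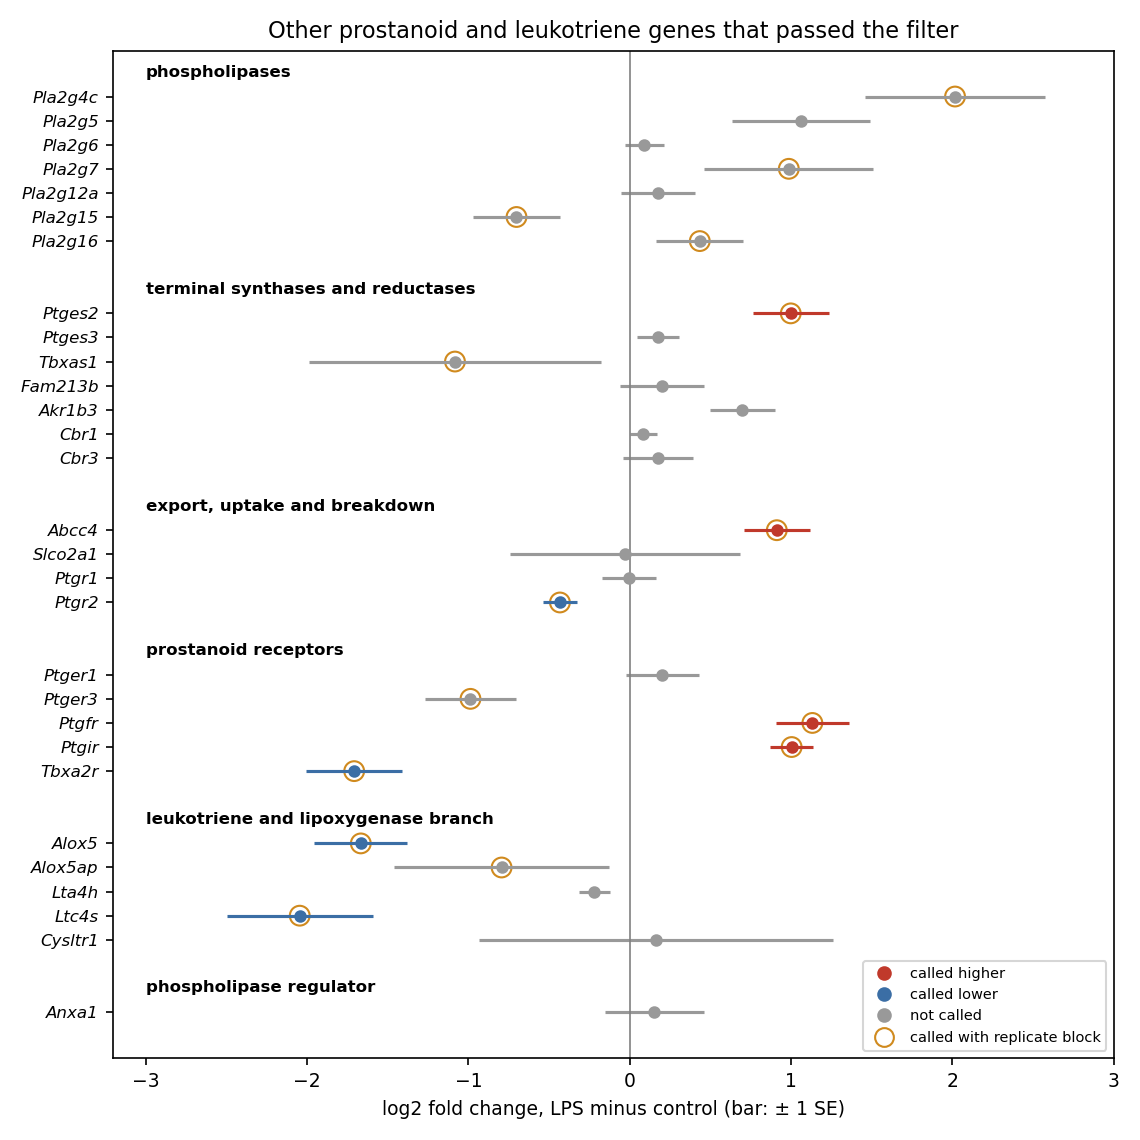
Log2 fold change of LPS against control (horizontal axis, bars are 1 SE) for the 29 genes of the pathway list that passed the filter, grouped by role, red or blue where called higher or lower and ringed where called with the replicate block. The called genes are Ptges2, Abcc4, Ptgfr and Ptgir (higher) and Ptgr2, Tbxa2r, Alox5 and Ltc4s (lower).

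In the leukotriene and lipoxygenase branch, which also starts from arachidonic acid, 5 of 10 genes passed the filter and 2 of them were called, both lower. Alox5, 5-lipoxygenase, fell from 1.89 ± 0.108 to 0.589 ± 0.188 CPM (SD over 3 libraries each; -1.67 on the log2 scale, edgeR adjusted p = 0.0178), at 40 to 48 counts in control libraries and 8 to 16 in LPS libraries. Ltc4s, leukotriene C4 synthase, fell from 3.08 ± 1.23 to 0.739 ± 0.345 CPM (-2.05, adjusted p = 0.035). The call for Ltc4s was lost when any 1 of the 6 libraries was left out (adjusted p up to 0.132), and that for Alox5 without control replicate 1 or 2 or LPS replicate 2 (up to 0.086).

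Of 12 other phospholipases, 7 passed the filter and the edgeR quasi-likelihood test called 0, with 3 at an unadjusted p under 0.05 and 1 called by DESeq2. Over the 15226 genes tested, 4892 were at an unadjusted edgeR p under 0.05, and DESeq2 called 2079 higher and 1673 lower. With the block, Pla2g4c, Pla2g7 and Pla2g16 were called higher and Pla2g15 lower. Pla2g4c, a cytosolic phospholipase with 3 to 39 counts in a library, had a log2 fold change of 2.02 (adjusted p = 0.063, and 0.0186 with the block). Pla2g16 was at 15.1 ± 3.89 and 20.4 ± 5.88 CPM and the lysosomal Pla2g15 at 86.9 ± 29.3 and 53.4 ± 11.0 CPM (SD, n = 3 each), with adjusted p-values of 0.325 and 0.137 that fell to 0.0329 and 0.0136 with the block. Pla2g7, the plasma platelet-activating factor acetylhydrolase, had the highest mean level per kilobase of these in both groups, at 62.4, 74.6 and 140.6 CPM in control and at 100.3, 133 and 317 CPM in LPS (log2 fold change 0.99, adjusted p = 0.255, and 0.00842 with the block). Its log2 fold change was 0.33 without LPS replicate 3 and 1.43 without control replicate 3, with no call. Pla2g10 had no count in any library, which allows a level of up to 0.124 to 0.167 CPM at the depth of these libraries. Anxa1, annexin A1, known as an inhibitor of phospholipase A2, was at 846 ± 141 and 941 ± 338 CPM (SD, n = 3 each; adjusted p = 0.775).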

How the data were processed

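The 3 control and 3 LPS libraries were read from 1 count file each. The deposited values were raw counts of reads per gene, prepared by the authors without pooling replicates. The submitters' processing notes name cutadapt 1.15, Bowtie2 2.3.3.1, STAR 2.5.2b, SAMtools 1.5 and featureCounts 1.5.3, with the mouse genome GRCm38. The library kit keeps strand, but the strand setting of the counting and the treatment of reads with several alignments are not given in the sources used here, so counts of overlapping genes are uncertain. Coordinates and exon lengths came from GENCODE M21 on GRCm38, in which 98.7% of identifiers were found. A further table of the whole series was not used here.

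Genes with low counts were removed with filterByExpr of edgeR (minimum count 10, minimum total 15), and trimmed mean of M-values factors (0.917 to 1.08) scaled the library sizes behind each CPM. A two-sided quasi-likelihood F-test (edgeR 4.0.16 in R 4.3.3) compared LPS with control over 15226 genes in a model of the group alone. The p-values were adjusted by Benjamini-Hochberg over these genes and called under 0.05. Each SE is the size of the log2 fold change over the root of F. The scripts were tested on simulated data, and no 2 libraries were identical.

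The replicate numbers appear in both groups, and the labels do not say what a number stands for. Across genes, the deviations of libraries from their group means correlated with r = 0.513, 0.334 and 0.613 between libraries numbered 1, 2 and 3. All exceeded 0.1, so the numbers were treated as pairing the libraries, a pairing taken from the data. Deviations within a group offset each other, so libraries numbered 3 that stand apart also raise r among those numbered 1 and 2. The limit of 0.1 is therefore a weak check of the pairs numbered 1 and 2. Libraries numbered 1 and 2 also correlated across numbers (0.419 for control 1 with LPS 2, 0.323 for control 2 with LPS 1), so the data do not tell these pairs apart. Alternatives were other scaling factors and filters, DESeq2 1.42.0, the edgeR exact test, limma-voom (limma 3.58.1), the replicate block, each library left out in turn and, chosen after seeing the data, both libraries numbered 3 left out. All 10 genes are named, together with those genes of the pathway list that were called in either fit and all prostanoid receptors. Ptges3, Akr1b3, Slco2a1, Pla2g10 and Anxa1 were added as examples after their values were seen. The genes and lists were chosen with earlier results of these data known. Motifs were searched in RefSeq start windows on GRCm38.p6. One gene of the marker lists was left out of the sums and is not reported here.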

Additional observations from a re-analysis of the deposited data

How the results depend on the processing

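Ptges was called in all 16 alternative fits, and Ptgs2, Hpgd and Ptger2 kept their direction in all 16. Library size alone moved the median over all genes from -0.02 to -0.175 and upper-quartile factors moved it to -0.124. The replicate block called 2343 genes higher and 2273 lower, of them 7 and 8 of the pathway list and 4 and 3 of the 10 prostaglandin genes. Without both libraries numbered 3 the test called 3498 genes higher and 3159 lower, of them 13 and 8 of the pathway list and 4 and 3 of the 10 genes. DESeq2 called 2079 higher and 1673 lower, upper-quartile factors called 1589 lower and library size alone 2054 lower. With 1 library left out, 379 to 1964 genes were called higher and 112 to 1426 lower, of the 10 genes 1 to 4 higher and 0 to 3 lower, and of the pathway list 0 to 6 higher and 0 to 3 lower. The log2 fold change of Ptgs1 reversed to 0.01 with relative log expression factors and with DESeq2 (0.00605 and 0.00608) and to 0.18 without both libraries numbered 3, and ranged from -0.21 to 0.12 with 1 library left out. That of Ptger4 reversed to -0.0223 with library size alone, -0.0507 with limma-voom, -0.0276 with the replicate block and -0.29 without both libraries numbered 3, and ranged from -0.72 to 0.56 with 1 left out. That of Ptger1 reversed to -0.0245 without both libraries numbered 3. From raw counts rather than counts per kilobase, the mean ratio of Hpgd to Ptges was 0.980 in control and 0.00324 in LPS, against 2.29 and 0.00757. The cause of these shifts was not tested, other than that the ratio of raw counts leaves out exon length. Low counts limit Ptgds, Ptger2, Ptgfr, Tbxa2r, Pla2g4c, Alox5 and Ltc4s, as well as Hpgd in LPS.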
